A study of Sus scrofa with 30 samples.

Results

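Plasma microRNA (miRNA) of Göttingen minipigs (GMPs) drawn 17 days after total body irradiation (17d) was compared with plasma of the same animals drawn 7 days (C7) and 1 day (C1) before irradiation. The comparison took every library at 17d that held at least 1000 counts and the pre-irradiation libraries of those animals, which gave 6 of the 30 libraries of the series, 2 at 17d and 4 pre-TBI. The animals were young male GMPs, each of which received 2.2 Gy of TBI from a cobalt-60 source, so that every animal was its own control and no animal that was not irradiated was sampled. All had served as the control arm of a drug test and had been injected with dextrose under the skin after TBI. Antibiotics were given when neutrophils fell very low, and the 17d plasma therefore differed from the pre-TBI plasma in dextrose, possible antibiotics, age and repeated bleeding as well as in TBI, which cannot be told apart here. The library of minipig 3 at 17d held 17 counts in all and could not be used, so that the comparison rested on minipig 1 and minipig 2.

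miRNAs are short RNAs that bind messenger RNAs through a seed near their 5′ end and lower the output of their targets. In plasma they are carried inside vesicles, on Argonaute proteins and on lipoproteins, and they come from blood cells, endothelium and solid organs. TBI damages the dividing cells of the bone marrow, and in the hematopoietic acute radiation syndrome (H-ARS) the counts of leukocytes, platelets and, later, red cells fall. miRNAs released by those cells have therefore been studied as radiation markers. The question of the comparison was which porcine miRNAs (ssc-miRNAs) differed from the pre-TBI baseline late in the course of H-ARS.

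The table held 411 ssc-miRNAs. The 17d libraries held 29159 counts in minipig 1 and 63441 in minipig 2. The pre-TBI libraries held 24341 (C7) and 139786 (C1) in minipig 1, and 226891 (C7) and 259716 (C1) in minipig 2. The smallest libraries set the precision, since 160 ssc-miRNAs had fewer than 10 counts in the 17d library of minipig 1, 49 in that of minipig 2 and 177 in C7 of minipig 1. Levels are given as log2 CPM (counts scaled to a common library total) after TMM scaling, with a prior count of 2. A count of 3 was taken as the floor of detection.

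At 17d, 69 of 411 ssc-miRNAs (16.8%) differed from pre-TBI with an unadjusted p under 0.05 in edgeR's quasi-likelihood test. That fit took its spread from the 20 libraries of minipig 1 and minipig 2. Fitted on the 6 compared libraries alone, 20 were called, and 18 with the minipig as a block. These are near the number that a p under 0.05 gives when no row differs. Of the 69, 42 were higher (10.2%) and 27 were lower (6.57%). With rows of identical counts taken once, the 69 were 67. Single libraries moved these counts: without the 17d library of minipig 2 there were 134 (40 higher and 94 lower), and without C1 of minipig 1 or C7 of minipig 2 there were 40. With scaling by library size only, 23 were higher and 22 lower, and with library size without rows over 10% of a library, 40 were higher and 7 lower. None passed a Benjamini-Hochberg adjusted p under 0.05 (0 of 411), and the smallest adjusted p was 0.055, while leaving out libraries gave up to 75 such calls, the most without the 17d library of minipig 2. With the minipig as a block, the count at unadjusted p stayed at 69, of which 60 were called in both fits, and 1 ssc-miRNA, ssc-miR-30b-5p, had an adjusted p of 0.0499, a call that was lost when the block was fitted on the 6 libraries alone or on thinned counts (0 in each). DESeq2 called 18 at adjusted p under 0.05. "Higher", "lower", "rose" and "fell" below refer to the unadjusted p, adjusted p-values are those of the same test over all rows, and no single ssc-miRNA passed the correction over the whole table in the fit without a block. Between C1 and C7, both before TBI, 3 ssc-miRNAs (0.73%) passed the same unadjusted p and 0 the adjusted one, and DESeq2 called 7 and 0. With counts thinned to the same library total, which does not equalise the depth left for rows other than the most abundant, the unadjusted calls were 15 between C1 and C7 and 49 between 17d and pre-TBI. In the same fit the other time points gave between 3 (at 0d) and 33 (at 10d) ssc-miRNAs against pre-TBI, each with 0 at adjusted p.

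The minipigs did not change alike. The difference of 17d from the mean of C7 and C1 had the same sign in both minipigs for 186 of 411 ssc-miRNAs (45.3%), and the correlation of the differences between the animals was -0.146 across 411 ssc-miRNAs, which are not independent replicates. Among the 69 called, 57 (82.6%) had the same sign in both, 31 of the 42 higher and 26 of the 27 lower, a share that the call itself raises. Both 17d libraries lay above all 4 pre-TBI libraries for 28 ssc-miRNAs (6.81%) and below them for 25 (6.08%), and 17 and 18 of these were called. Shares of this size are near what a random order of these libraries would give. Such separation was also required of the rows named by rule below, so for them it is not separate evidence. Few counts stood behind many calls, since 18 of the 42 higher and 10 of the 27 lower had fewer than 10 counts in a 17d library.

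**Figure D1:**
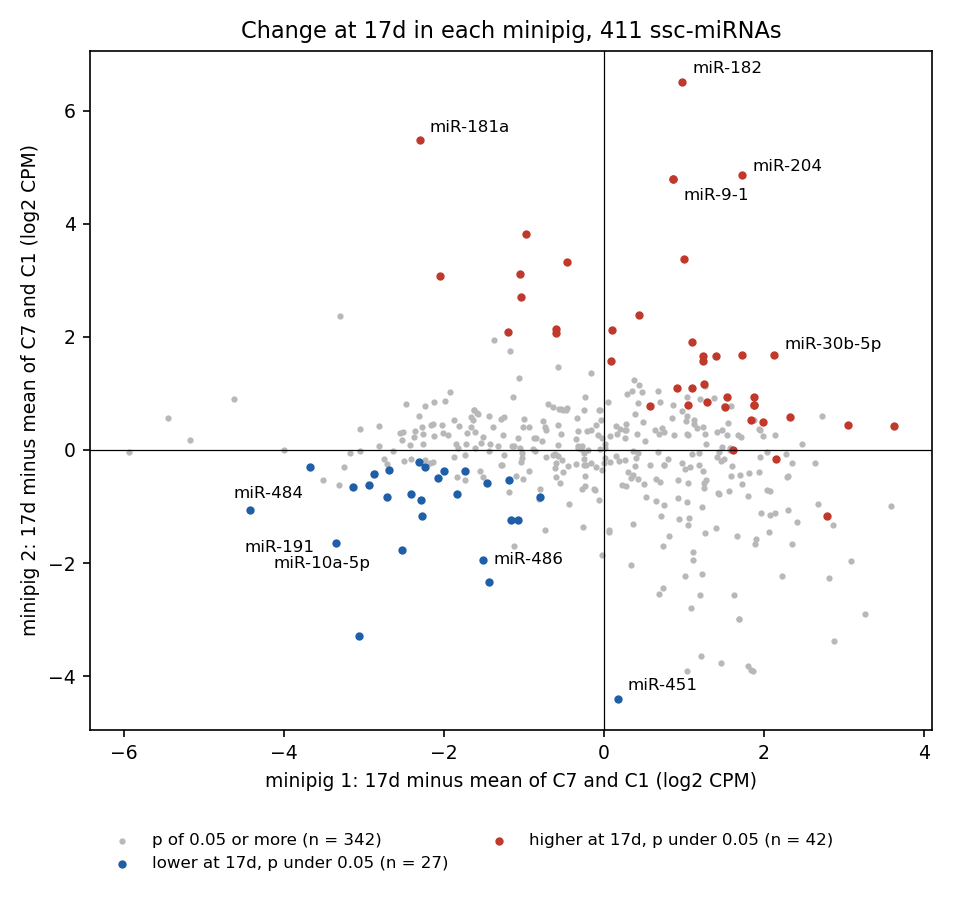
Difference of the 17d library from the mean of C7 and C1 (log2 CPM) in minipig 1 (x axis) and minipig 2 (y axis), 1 point per ssc-miRNA, coloured by the call of 17d against pre-TBI. Of the 42 red points 31 lie up in both minipigs, such as miR-204, and most of the others lie up in minipig 2 and down in minipig 1, such as miR-181a, while all blue points but miR-451 lie down in both.

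The leading higher ssc-miRNAs were miR-204 and the miR-9 group. miR-204 is known from the eye, the choroid plexus and the pancreatic islet. Its level was 10.99 in minipig 1 and 13.19 in minipig 2 at 17d, against 10.41 (C7) and 8.12 (C1) in minipig 1 and 8.19 (C7) and 8.48 (C1) in minipig 2. As the naming rule required, both 17d libraries lay above all pre-TBI libraries, although C7 of minipig 1 came within 0.58 of the 17d library of that animal. The counts behind these levels were 49 and 585 at 17d. The fitted change was 11.1-fold (log2 fold change 3.47 ± 0.80 SE, adjusted p = 0.055). The log2 fold change was 2.01 without the 17d library of minipig 2, 4.30 without that of minipig 1, and 1.30 without all libraries of minipig 2, where it did not pass the test.

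miR-9, a miRNA of neural progenitors and neurons, was listed under the names miR-9-1, miR-9-2 and miR-9, and the rows of miR-9-1 and miR-9-2 held identical counts in every library and are 1 measurement. The level of ssc-miR-9-1 at 17d was 9.84 in minipig 1 and 12.53 in minipig 2. Before TBI it was 9.83 (C7) and 8.12 (C1) in minipig 1, and 7.69 (C7) and 7.78 (C1) in minipig 2. The separation thus rested on minipig 2, because the 17d level of minipig 1 exceeded its C7 level by only 0.01. The fitted log2 fold change was 3.30 ± 0.74 (adjusted p = 0.055), and without the 17d library of minipig 2 it was 1.44 (adjusted p = 0.247). ssc-miR-9 rose as well, by 2.30 ± 0.64 (adjusted p = 0.0949), with 22 counts at 17d in minipig 1 and 130 in minipig 2.

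miR-138 and miR-218, miRNAs of the brain, were other members of the nervous system list that rose. The level of ssc-miR-138 was 8.72 and 8.43 at 17d, against 8.02 (C7) and 6.63 (C1) in minipig 1 and 6.70 (C7) and 6.86 (C1) in minipig 2. Its levels at 17d were alike in both animals and, as the naming rule required, above every pre-TBI library. It rose by 1.70 ± 0.49 (adjusted p = 0.106). The rows ssc-miR-218b, ssc-miR-218 and ssc-miR-218-5p rose by 1.22, 1.15 and 1.15, with 5 counts each in minipig 1 and 12 to 14 in minipig 2, and the last pair held identical counts. Of the 20 rows of the list, 7 rose (the miR-9, miR-138 and miR-218 rows above), 1 fell (miR-383) and 12 did not pass the test, where 10.2% of all rows rose and 6.57% fell. Because 2 pairs of these rows hold identical counts, the 7 are 5 distinct measurements. Among the 12, ssc-miR-129a-5p and ssc-miR-129b also had equal values (0.08 each), and the 20 rows count every such row. The median log2 fold change of the list was 0.67, against 0.06 over all 411 ssc-miRNAs. With scaling by library size only, 4 of the 20 rose, and without the 17d library of minipig 2, 3 rose and 5 fell.

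**Figure D2:**
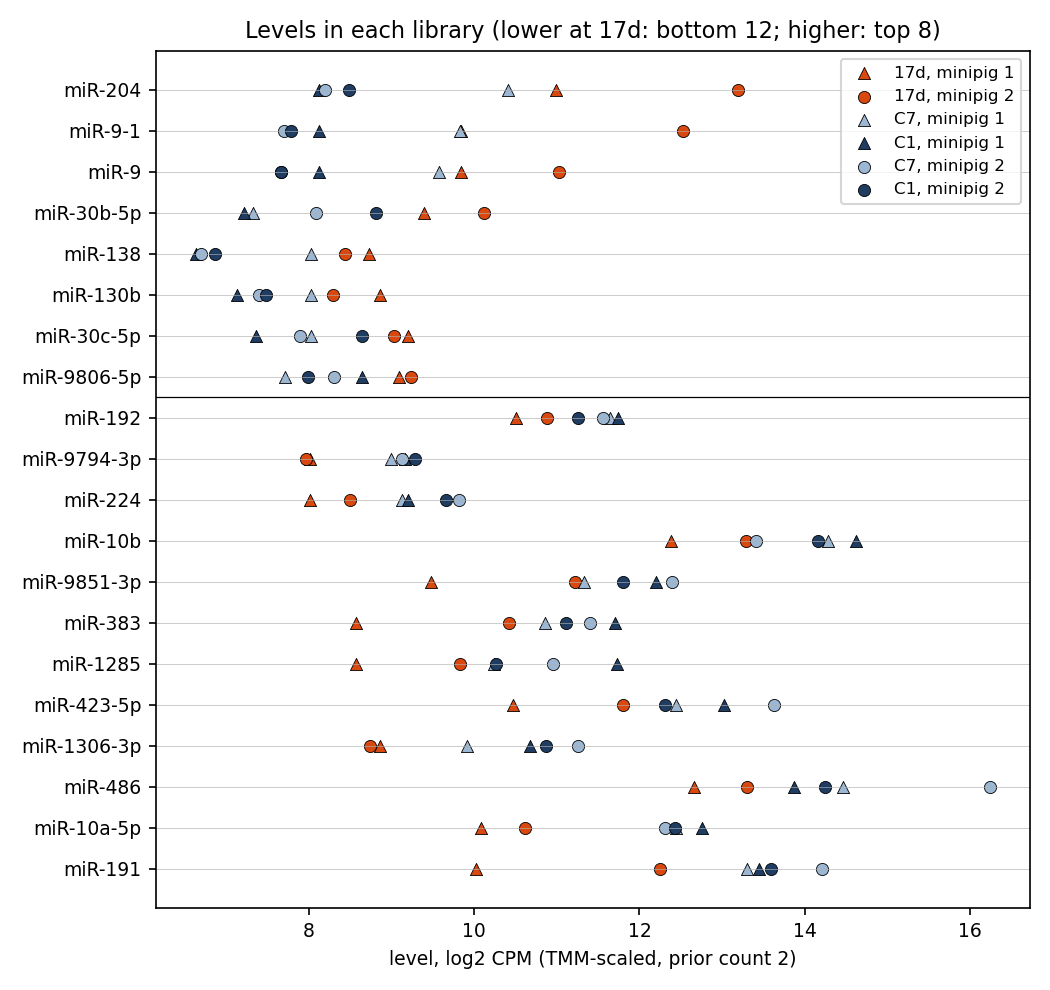
Level (log2 CPM) of the rule-named ssc-miRNAs in each of the 6 libraries, triangles for minipig 1 and circles for minipig 2, orange for 17d, light blue for C7 and dark blue for C1. miR-9-2, identical to miR-9-1, is not drawn, and for miR-9-1 the C7 triangle covers the 17d triangle of minipig 1. As the naming rule required, the 8 rows at the top have both orange points at the right and the 12 at the bottom have both at the left.

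The largest fitted increases belonged to miR-182 and miR-181a, and they came from minipig 2. miR-182 is made from a cluster with miR-183 and miR-96 that is best known from sensory organs and tumours. ssc-miR-182 had 11235 counts at 17d in minipig 2, which was 17.7% of that library, and 50 counts in minipig 1. Its levels were 17.46 in minipig 2 and 11.02 in minipig 1, against 11.46 (C7) and 8.62 (C1) in minipig 1 and 10.31 (C7) and 11.57 (C1) in minipig 2. Minipig 1 thus lay within the pre-TBI range, and the groups overlapped. The fitted log2 fold change of 5.62 ± 1.35 (adjusted p = 0.0648) became 0.18 (adjusted p = 0.91) without the 17d library of minipig 2.

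The other 2 members of the cluster were ssc-miR-96-5p and ssc-miR-183, and the difference between their changes was not tested. ssc-miR-96-5p rose by 1.72 ± 0.48 (adjusted p = 0.0949), with levels of 8.57 and 9.92 at 17d and from 7.43 to 8.84 before TBI. Its value was 0.86 without the 17d library of minipig 2, and the call was lost. ssc-miR-183 had a log2 fold change of 0.82 ± 1.18 (adjusted p = 0.767). Its level was 16.35 in minipig 1 and 13.63 in minipig 2, against 15.80 in C7 of minipig 1 and 13.45 to 14.71 in the other pre-TBI libraries. ssc-miR-183 was also 1 of 8 rows, described further on, whose levels moved together across the libraries. In the porcine RefSeq annotation the 3 lie within 10000 bases of each other.

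miR-181a and miR-181b regulate the sensitivity of T and B lymphocyte signalling and are abundant in the thymus and brain. ssc-miR-181a had 7926 counts at 17d in minipig 2, 12.5% of the library, and 11 counts in minipig 1. Its level was 16.95 in minipig 2 and 8.86 in minipig 1, while the pre-TBI levels ran from 10.65 to 11.67. The animals therefore moved in opposite directions from a narrow baseline. The fitted log2 fold change was 4.60 ± 1.20 (adjusted p = 0.0926), and it was -2.52 (adjusted p = 0.165) without the 17d library of minipig 2. ssc-miR-181b followed the same pattern, with levels of 13.58 and 8.57 at 17d in minipig 2 and minipig 1, from 9.47 to 9.97 before TBI and a log2 fold change of 2.97 ± 0.76 (adjusted p = 0.0926). Of the 5 rows of the miR-181 list these 2 rose, where 10.2% of all rows rose. The other 3 did not pass the test, with log2 fold changes from -0.47 to -0.14. The median of the list was -0.14, and it was -1.32 without the 17d library of minipig 2.

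The miR-30 family, which is widely expressed in kidney, heart, lung and endothelium, had positive values in all its rows. Of its 10 rows, 5 rose and none fell, where 10.2% of all rows rose and 6.57% fell, all 10 log2 fold changes lay between 0.16 and 1.76, and the median was 1.20. In the block fit 7 rows rose, under RLE scaling 8 and under scaling by library size only 1, and without the 17d library of minipig 2 there were 2 higher and 1 lower. The member with the smallest p was ssc-miR-30b-5p. Its level was 9.39 and 10.12 at 17d in minipig 1 and minipig 2, against 7.32 (C7) and 7.21 (C1) in minipig 1 and 8.08 (C7) and 8.81 (C1) in minipig 2. Both animals moved up, and the fitted change was 1.76 ± 0.53 (adjusted p = 0.116). ssc-miR-30c-5p was higher in both animals as well, with 9.20 and 9.03 at 17d, from 7.36 to 8.64 before TBI and an increase of 1.06 ± 0.49 (adjusted p = 0.294). The call of ssc-miR-30c-5p was lost in 15 of 27 alternatives, leaving out either 17d library among them, and that of ssc-miR-30b-5p in 2 of 27.

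The other called members of the miR-30 family depended on minipig 2. The level of ssc-miR-30d was 13.56 at 17d in minipig 2 and 9.20 in minipig 1, against 10.38 to 11.76 before TBI. Its increase of 1.58 ± 0.72 (adjusted p = 0.294) turned to -1.88 (adjusted p = 0.0843) without the 17d library of minipig 2. ssc-miR-30a-5p and ssc-miR-30e-5p, with increases of 1.34 ± 0.56 and 1.63 ± 0.76, lay below all pre-TBI libraries in minipig 1 and above all of them in minipig 2. Without the 17d library of minipig 2 their values were -0.68 and -1.47.

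The let-7 family, which holds back proliferation and marks differentiated cells, split in the same way. Of its 9 rows, 4 rose (let-7a, let-7e, let-7f and let-7g), 2 fell (both arms of let-7d) and 3 did not pass the test, with a median of 1.17, where 10.2% of all rows rose and 6.57% fell. The level of ssc-let-7f was 12.43 at 17d in minipig 2 and 8.01 in minipig 1, against 8.08 to 9.13 before TBI. The counts behind the minipig 1 levels were low, at 2 for ssc-let-7a, 2 for ssc-let-7e, 6 for ssc-let-7f and 7 for ssc-let-7g. Their fitted increases were 2.21, 2.19, 2.70 and 1.74. Without the 17d library of minipig 2, none of the list rose and 4 fell, and without that of minipig 1, 5 rose and none fell. Both arms of let-7d went the other way in both animals, ssc-let-7d-5p by -1.64 ± 0.77 and ssc-let-7d-3p by -1.16 ± 0.51. The call of ssc-let-7d-5p was lost once minipig entered the fit as a block (adjusted p = 0.294). Neither arm was called under RLE scaling, with library size without rows over 10% or without the 8 rows described further on.

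The miR-29 family represses collagens and other matrix proteins. ssc-miR-29a rose by 1.51 ± 0.57 (adjusted p = 0.254) and ssc-miR-29c by 1.48 ± 0.64 (adjusted p = 0.294), up in both minipigs relative to their own baselines, and ssc-miR-29b had a value of 0.11. Neither call held with scaling by library size only (1.40 and 1.33) or without the 17d library of minipig 2 (0.52 and 0.77). ssc-miR-29a had levels of 8.72 and 10.24 at 17d in minipig 1 and minipig 2, against 8.02 and 6.95 in minipig 1 and 8.15 and 8.99 in minipig 2 before TBI. The groups overlapped because the C1 library of minipig 2 lay above the 17d library of minipig 1. ssc-miR-34a, which p53 induces after DNA damage, rose by 1.44 ± 0.54 (adjusted p = 0.254). Its levels were 9.78 and 8.29 at 17d and from 7.11 to 8.68 before TBI, and without the 17d library of minipig 1 its change was 0.63 (adjusted p = 0.717). The other row of that list, ssc-miR-34c, had a value of -0.92 ± 0.61 (adjusted p = 0.459). Without the 17d library of minipig 1, ssc-miR-34c was called lower, at -1.77, and ssc-miR-34a was not called.

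Further ssc-miRNAs that rose with both 17d libraries above the baseline had few counts. ssc-miR-130b had 11 and 19 counts at 17d and rose by 1.15 ± 0.44 (adjusted p = 0.259), a call lost in 9 of 27 alternatives. ssc-miR-9806-5p, a porcine miRNA, had levels of 9.09 and 9.23 at 17d and from 7.71 to 8.64 before TBI. It rose by 0.95 ± 0.34 (adjusted p = 0.223), a call lost in 7 of 27 alternatives. ssc-miR-217, a miRNA of the exocrine pancreas, had 8 and 11 counts at 17d, 0 in C7 of minipig 1 and from 9 to 42 in the other pre-TBI libraries. It rose by 1.21 ± 0.57 (adjusted p = 0.294), while ssc-miR-216, its neighbour in the genome, had a value of 0.03. The call of ssc-miR-217 did not hold under either scaling by library size (1.06 over all rows and 1.14 without rows over 10%) or without the 17d library of minipig 1 (0.80). Without that of minipig 2, ssc-miR-216 was called lower, at -2.78. ssc-miR-26a, outside the lists, rose by 1.90 ± 0.67 (adjusted p = 0.223) on the strength of minipig 2, with levels of 13.20 there, 9.20 in minipig 1 and 9.69 to 10.78 before TBI.

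Among the decreases, the smallest p was that of ssc-miR-10a-5p, a miRNA encoded within the HOXB gene cluster and expressed in myeloid progenitors and endothelium. Its level was 10.08 and 10.61 at 17d, against 12.44 (C7) and 12.76 (C1) in minipig 1 and 12.31 (C7) and 12.43 (C1) in minipig 2. The pre-TBI libraries spanned less than the distance to 17d, and ssc-miR-10a-5p fell 4.37-fold (log2 fold change -2.13 ± 0.46, adjusted p = 0.055). The call held without either 17d library, at -1.84 (adjusted p = 0.0925) without that of minipig 1 and -2.42 (adjusted p = 0.0152) without that of minipig 2. Across all sampling days both minipigs had their lowest level of ssc-miR-10a-5p at 17d.

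ssc-miR-10b, the paralogue of miR-10a in the HOXD cluster, fell by 1.27 ± 0.53 on the log2 scale (adjusted p = 0.294). Its levels of 12.38 and 13.29 at 17d lay below 14.29 and 14.62 in minipig 1 and 13.42 and 14.16 in minipig 2, the nearest pre-TBI library being 0.13 away. The list of the miR-10, miR-99 and miR-125 families had these 2 decreases, no increase and 6 rows that did not pass the test, with a median of -1.18, where 6.57% of all rows fell. The list had 5 lower and 1 higher without the 17d library of minipig 2, and without that of minipig 1 it had 1 lower and a median of -0.55. The call of ssc-miR-10b was lost in 12 of 27 alternatives, leaving out the 17d library of minipig 1 among them. ssc-miR-125a and ssc-miR-125b had values of -1.23 ± 0.62 (adjusted p = 0.304) and -1.19 ± 0.66 (adjusted p = 0.345). ssc-miR-99a went the other way, at 0.94 ± 0.48 (adjusted p = 0.306).

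miR-191 is abundant in platelets and in many other cells. ssc-miR-191 had levels of 10.02 and 12.25 at 17d in minipig 1 and minipig 2, against 13.30 (C7) and 13.45 (C1) in minipig 1 and 14.21 (C7) and 13.59 (C1) in minipig 2. It fell 4.42-fold (log2 fold change -2.14 ± 0.69, adjusted p = 0.157). Both animals were lower, minipig 1 by 3.35 and minipig 2 by 1.65, and without the 17d library of minipig 1 the value was -1.39 (adjusted p = 0.416). Plasma is a bulk sample, so that fewer cells of a type and less RNA released per cell cannot be told apart. In the platelet-enriched list as a whole, where 10.2% of all rows rose and 6.57% fell, 1 of 9 rows fell, 1 rose (ssc-miR-425-3p, by 0.93 ± 0.41, adjusted p = 0.294) and 7 did not pass the test. The median was -0.54, and the rows of miR-126, which endothelium also makes, had values of -1.02 (adjusted p = 0.304) and -0.15 (adjusted p = 0.888). No row of the list rose with either scaling by library size. Without C7 of minipig 1 or with the pre-TBI libraries of minipig 3 added, 2 rows fell.

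The erythroid list holds miR-486, miR-451 and miR-144, the dominant miRNAs of red cells and reticulocytes, whose levels in plasma also move with haemolysis. All 3 had negative values and 2 passed the test, where 6.57% of all rows fell, with a median of -2.02. In minipig 1, however, ssc-miR-451 and ssc-miR-144 were not lower at 17d than the mean of C7 and C1 (differences of 0.17 and 0.74), whereas in minipig 2 the differences were -4.40 and -2.45. Without the 17d library of minipig 2 none of the 3 was called, and without that of minipig 1 only 1 was. The level of ssc-miR-486 was 12.66 and 13.31 at 17d, against 14.46 (C7) and 13.87 (C1) in minipig 1 and 16.25 (C7) and 14.25 (C1) in minipig 2. Both 17d libraries lay below the baseline, which itself spanned 2.37, and ssc-miR-486 fell by 2.02 ± 0.85 on the log2 scale (adjusted p = 0.294). Its decrease did not pass the test without either 17d library (adjusted p = 0.586 without minipig 1 and adjusted p = 0.163 without minipig 2).

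ssc-miR-451 fell by 2.93 ± 1.24 (adjusted p = 0.294), but the change was confined to minipig 2 among the 2 animals and did not pass the test with the minipig as a block (adjusted p = 0.294). The counts were 17 and 12 at 17d in minipig 1 and minipig 2, 10 and 95 before TBI in minipig 1, and 2229 and 545 in minipig 2. In minipig 1 the 17d level of 9.47 lay between those of C7 (8.99) and C1 (9.61), and in minipig 2 it was 7.65 against 13.23 and 10.88. The log2 ratio of miR-451 to miR-23a, used as a measure of haemolysis in plasma, was 3.42 in C7 of minipig 2, 1.13 in its C1 and -1.42 at 17d. In minipig 1 it was -1.19 in C7, 0.02 in C1 and -0.30 at 17d. The part of haemolysis in the pre-TBI levels of the erythroid ssc-miRNAs was not tested. ssc-miR-144 had a value of -1.79 ± 1.15 (adjusted p = 0.444), from 3 and 5 counts at 17d.

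No row of the myeloid or lymphocyte list was called, but with 16.8% of all rows called, lists this short hold few calls or none at the background share. Both rows of the myeloid list, the arms of miR-142, had values of -1.09 ± 0.70 (adjusted p = 0.448) and -0.28 ± 0.64 (adjusted p = 0.863), with 5 to 14 counts at 17d. The list had also named miR-223, which has no row in the table used here. Of the 4 lymphocyte rows none passed the test. ssc-miR-342 lay below all pre-TBI libraries at -0.76 ± 0.38 (adjusted p = 0.304), ssc-miR-150 was at 0.50 ± 0.44 (adjusted p = 0.6), and the arms of miR-155 were at 1.63 and 1.27 with 4 to 17 counts at 17d. ssc-miR-150 had 7 and 77 counts at 17d and ssc-miR-342 had 14 and 40. The lymphocyte list had 1 higher row without either 17d library, without C7 of minipig 1, with the pre-TBI libraries of minipig 3 added and with library size without rows over 10%. Of the 13 rows of miR-17-92 and its paralogues, which drive the growth of hematopoietic progenitors, none passed the test, and their median was -0.52, again beside 16.8% called over all rows, but 3 were lower without the 17d library of minipig 2.

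The remaining rule-named decreases had no blood cell list. ssc-miR-1306-3p, made from the transcript of the miRNA processing factor DGCR8, fell by 2.0 ± 0.54 on the log2 scale (adjusted p = 0.0949), with levels of 8.86 and 8.73 at 17d and from 9.91 to 11.26 before TBI. ssc-miR-423-5p, a miRNA common in plasma, fell by 1.66 ± 0.48 (adjusted p = 0.106), with 10.47 and 11.81 at 17d and from 12.31 to 13.63 before TBI. ssc-miR-383, of the nervous system list and of the testis, fell by 1.5 ± 0.45 (adjusted p = 0.117), with 8.57 and 10.42 at 17d and from 10.86 to 11.70 before TBI. In each of these the 17d libraries lay below every pre-TBI library in both animals, as the naming rule required. The calls were lost in 2 of 27 alternatives for ssc-miR-1306-3p, 4 for ssc-miR-423-5p and 6 for ssc-miR-383. With library size without rows over 10%, 5 of the 12 rule-named lower rows stayed called.

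The other rule-named decreases were those of ssc-miR-9794-3p, ssc-miR-9851-3p, ssc-miR-1285, ssc-miR-224 and ssc-miR-192, with log2 fold changes from -1.59 to -0.85. In that order, the calls before ssc-miR-192 were lost in 4, 6, 8 and 12 of 27 alternatives. ssc-miR-192, a miRNA of intestinal epithelium, liver and kidney, had the smallest change against pre-TBI (-0.85 ± 0.37, adjusted p = 0.294). Its levels were 10.51 and 10.88 at 17d, and from 11.26 to 11.73 before TBI. Its call was lost in 17 of 27 alternatives. In the gut epithelium list it was the 1 decrease among 5 rows, where 6.57% of all rows fell. There was none with library size without rows over 10%, without the 8 rows described further on or without C7 of minipig 1. ssc-miR-9862-3p had no count in either 17d library and 1, 11, 23 and 19 counts in C7 and C1 of minipig 1 and C7 and C1 of minipig 2. No fold is given for it, since a count of 0 allows up to 3 counts in each 17d library and C7 of minipig 1 held fewer than that.

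Among the most abundant ssc-miRNAs before TBI, ssc-miR-484 fell and ssc-miR-4332 did not pass the test. ssc-miR-484 held 2.48% (C7) and 15.9% (C1) of the pre-TBI counts in minipig 1 and 8.76% (C7) and 6.02% (C1) in minipig 2. At 17d it held 0.285% in minipig 1 and 3.18% in minipig 2. Minipig 1 lay far below the baseline and minipig 2 within it on the log2 CPM scale. The decrease of 2.29 ± 1.01 (adjusted p = 0.294) did not pass the test with the minipig as a block (adjusted p = 0.294). The call of ssc-miR-484 was lost in 12 of 27 alternatives. ssc-miR-4332, the most abundant, held 0.83% at 17d in minipig 1 and 10.3% in minipig 2, against 8.95% to 19% before TBI, with a log2 fold change of -1.27 ± 0.88 (adjusted p = 0.478). ssc-miR-9828-3p had -1.49 ± 0.71 (adjusted p = 0.299).

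A further set of 8 rows was chosen after the values were seen, as those above 4% of the 17d library of minipig 1. The set was ssc-miR-9850-5p, ssc-miR-146a-5p, ssc-miR-146b, ssc-miR-186, ssc-miR-490, ssc-miR-490-3p, ssc-miR-124a and ssc-miR-183. The rows of ssc-miR-490 and ssc-miR-490-3p held identical values in every library and are 1 measurement. The 8 moved together, with a median correlation of their log2 levels of 0.974 over the 20 libraries of minipig 1 and minipig 2. The median over all pairs of ssc-miRNAs was -0.0003025. At 17d they made up 63.1% of the counts in minipig 1 and 2.97% in minipig 2. Before TBI their share was 41.7% (C7) and 9.63% (C1) in minipig 1 and 11.8% (C7) and 27.9% (C1) in minipig 2. Of them, 7, all but ssc-miR-9850-5p, had nearly equal counts in the 17d library of minipig 1, the highest being 1.07 times the lowest. That ratio was more than 10 in the 17d library of minipig 2 and from 1.04 to 1.29 in the pre-TBI libraries. None passed the test of 17d against pre-TBI, with log2 fold changes from 0.54 to 0.82. With the minipig as a block 6 of the 8 were negative, and without the 17d library of minipig 1 all 8 were, from -4.39 to -1.01, none called. Without all libraries of minipig 1, ssc-miR-146a-5p, ssc-miR-186, ssc-miR-9850-5p and both rows of miR-490 were called lower.

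**Figure D3:**
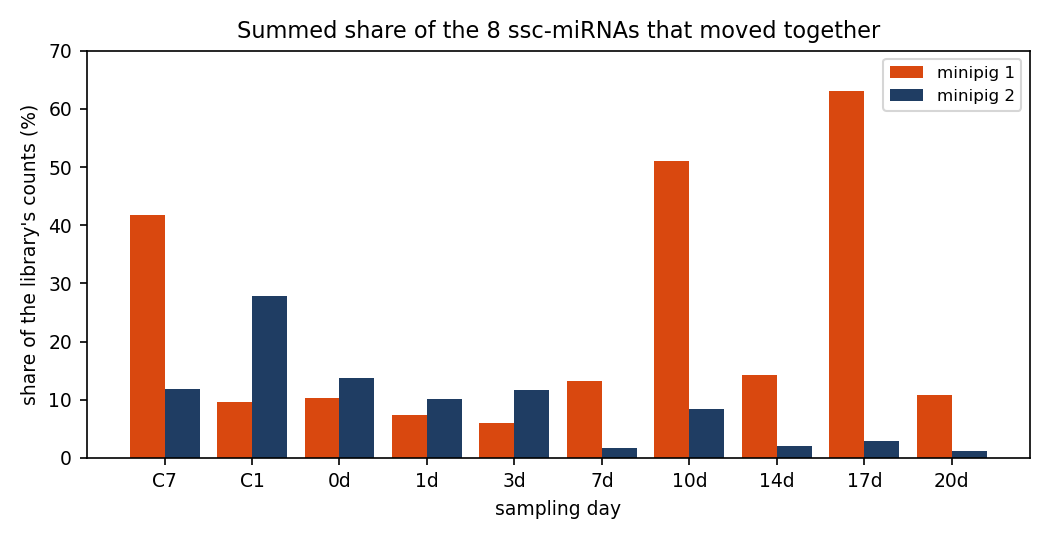
Share of each library's counts (%) held by the 8 ssc-miRNAs that moved together, by sampling day, for minipig 1 (orange) and minipig 2 (blue), 1 library per bar. The share was highest at 17d in minipig 1, followed by 10d and C7 of the same minipig, and was 2.97% at 17d in minipig 2.

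With those 8 rows in place, 10759 counts were left over 403 ssc-miRNAs in the 17d library of minipig 1. Fitted without them, the count of calls was again 69, of which 56 were higher and 13 lower, and 42 of the 42 higher and 13 of the 27 lower calls remained. The inflammatory list, miR-146 and miR-21, has 2 of its 4 rows among the 8, and none of the 4 passed the test. In that list 1 row was higher without C7 of minipig 1 and with the pre-TBI libraries of minipig 3 added. Its median of 0.73 became 1.71 without the 17d library of minipig 2 and -3.14 without that of minipig 1. ssc-miR-21 was at 0.19 ± 0.53 (adjusted p = 0.889). Whether reads of 1 sequence were counted in several of these rows cannot be told from a table of counts.

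The change at 17d also ran with the level of the ssc-miRNA. Among the 103 ssc-miRNAs with the lowest levels, 21 were higher and 1 lower, and among the 103 with the highest, 5 were higher and 18 lower. In minipig 1 the median difference of 17d from pre-TBI went from 1.08 in the former to -1.51 in the latter, and in minipig 2 from 0.23 to -0.21. The difference of C1 minus C7, both before TBI, went from -0.89 to 0.50 in minipig 1 and from 0.28 to -0.37 in minipig 2, so that it ran with the level in opposite senses in the 2 animals and in minipig 2 was no smaller than the difference at 17d. These differences share C7 and C1 with those at 17d, and with counts thinned to 1 total the calls were 49 at 17d, as given above.

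The other organ lists, of 1 to 8 rows each, held no call, where 16.8% of all rows were called. Neither the 8 rows of muscle and heart (miR-1, miR-133, miR-206, miR-208 and miR-499), the 3 of liver, the 4 of smooth muscle (miR-143 and miR-145), the 5 of the mesenchymal miR-199 and miR-214, the 5 of miR-15 and miR-16 nor the 1 of the miR-200 family passed the test. Their medians ran from -0.73 to 0.24, and with the block 1 row of muscle and heart, ssc-miR-499-3p, was called higher. There were 2 lower liver rows and 1 lower mesenchymal row without the 17d library of minipig 2. Without that of minipig 1, 1 liver row and 1 smooth muscle row were lower, and 1 row of miR-15 and miR-16 and 1 of muscle and heart were higher. Without C7 of minipig 1, 1 row of miR-15 and miR-16 was higher and 1 lower. With the pre-TBI libraries of minipig 3 added, 1 smooth muscle row and 1 row of miR-15 and miR-16 were higher. Without the 8 rows that moved together, 1 row of muscle and heart was higher. ssc-miR-122, which liver releases on injury, had levels of 10.59 and 8.43 at 17d and from 9.52 to 10.37 before TBI, with a log2 fold change of -0.19 ± 0.55 (adjusted p = 0.895). In the list of miR-23, miR-24 and miR-27, ssc-miR-24-2-5p rose by 1.11 ± 0.41 (adjusted p = 0.254), ssc-miR-27a fell by 1.33 ± 0.61 (adjusted p = 0.294) and 6 rows did not pass the test, which is near the shares over all rows (10.2% higher and 6.57% lower). With the block, with minipig 3 added to the baseline or without C7 of minipig 1, 1 of that list rose and 2 fell. With either scaling by library size or without the 8 rows, 1 rose and 0 fell. In the pancreas list 1 of 2 rows rose, ssc-miR-217, and in the list of miR-204 and miR-211 the single row rose.

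**Figure D4:**
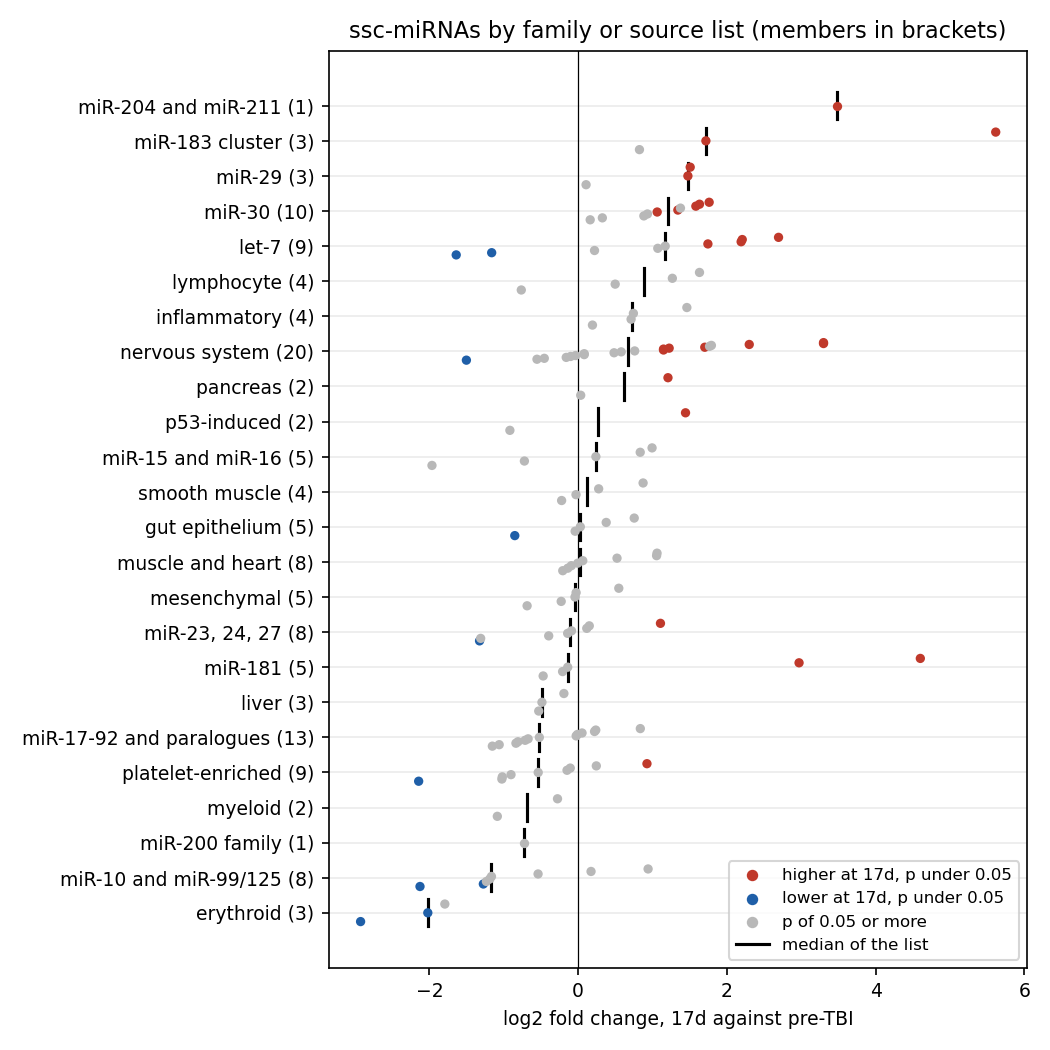
Log2 fold change of 17d against pre-TBI for the members of 24 lists of miRNA families or sources, 1 point per ssc-miRNA, coloured by call, with the median of each list as a black bar and the number of members in brackets. The miR-30 members all lie at 0.16 or above and the erythroid members at -1.79 or below.

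The days beside 17d were set against it in the same fit. Between 17d and 14d, 93 ssc-miRNAs (22.6%) differed at unadjusted p, 61 higher and 32 lower at 17d, and none at adjusted p, where the fit with the minipig as a block gave 10, that block on the 4 libraries alone 0 and DESeq2 45. Between 17d and 20d, 118 (28.7%) differed, 73 higher and 45 lower at 17d. Of these, 3 passed the adjusted p, all lower at 17d: ssc-miR-192 (-2.40 ± 0.43, adjusted p = 0.0217), ssc-miR-9794-3p (-1.99 ± 0.41, adjusted p = 0.0296) and ssc-miR-126-5p (-2.78 ± 0.58, adjusted p = 0.0296). With the block 5 passed, with DESeq2 71 and with library size without rows over 10% none. Without the 17d library of minipig 2, 148 passed the adjusted p, and 84 were higher and 110 lower at unadjusted p. These comparisons share the 17d libraries with the one against pre-TBI, so their calls are not separate evidence.

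ssc-miR-9-1 was higher at 17d than at 14d by 4.27 (adjusted p = 0.0516) and than at 20d by 2.37 (adjusted p = 0.139). Over the successive days 10d, 14d, 17d and 20d its level ran 10.04, 8.0, 9.84 and 8.30 in minipig 1, and 8.08, 6.92, 12.53 and 10.02 in minipig 2. ssc-miR-204 followed the same course, at 10.60, 8.28, 10.99 and 7.87 in minipig 1 and 9.12, 8.57, 13.19 and 10.93 in minipig 2. In minipig 1 the 10d level was thus near the 17d level for both. ssc-miR-182 in minipig 2 went from 9.48 (14d) to 17.46 (17d) and then 14.79 (20d). ssc-miR-30b-5p in minipig 2 ran 9.84, 7.43, 10.12 and 7.84 over the same days, a course in which 10d stood nearly as high as 17d.

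ssc-miR-10a-5p was lower at 17d than at 14d by 2.33 (adjusted p = 0.0516) and than at 20d by 1.75 (adjusted p = 0.118). From 14d over 17d to 20d its level ran 12.67, 10.08 and 12.44 in minipig 1, and 12.73, 10.61 and 11.71 in minipig 2. For ssc-miR-191 the difference from 20d did not pass the test (-0.77, adjusted p = 0.47), the level in minipig 2 being 12.24 (14d), 12.25 (17d) and 11.93 (20d). ssc-miR-486 did not differ detectably between 17d and either neighbour (adjusted p = 0.585 and adjusted p = 0.647). Of the 9 rule-named higher rows, 7 were also higher at 17d than at 14d and 8 than at 20d. Over all 411 rows, 61 and 73 were higher. Of the 12 lower rows, 8 were lower than at 14d and 8 than at 20d, where 32 and 45 of all rows were lower. The rows were named by the same 17d libraries, which raises their counts.

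**Figure D5:**
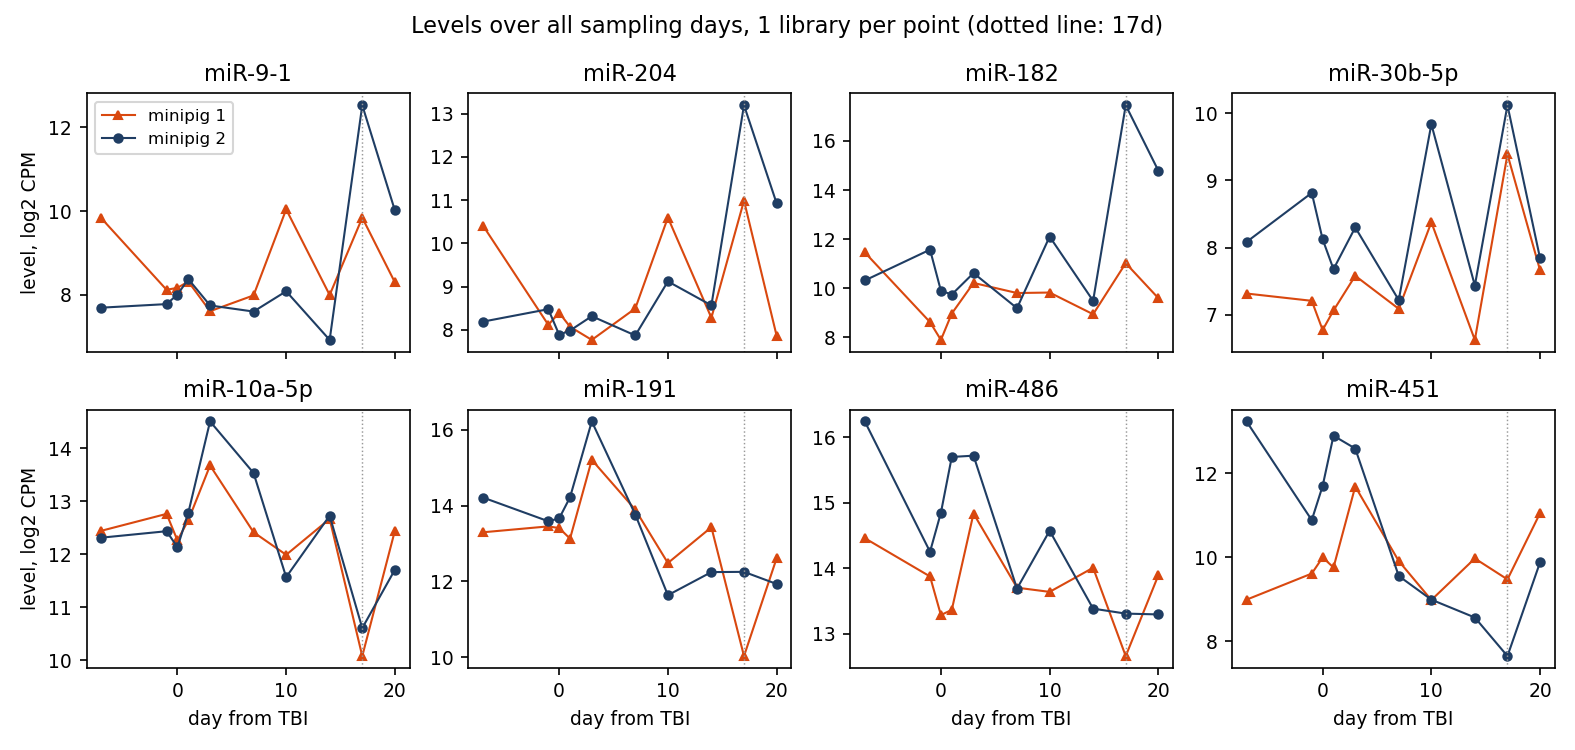
Level (log2 CPM) of 8 ssc-miRNAs on every sampling day from 7 days before to 20 days after TBI in minipig 1 (orange triangles) and minipig 2 (blue circles), 1 library per point, with a dotted line at 17d. miR-10a-5p is at its lowest in both minipigs at 17d, while the 17d peaks of miR-9-1 and miR-182 stand out in minipig 2.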

How the data were processed

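Small RNA of plasma was sequenced by the authors from TruSeq small RNA libraries on a NextSeq. According to the study's methods, Cutadapt trimmed the reads, Bowtie (version 2.2.3.0 in the submitters' processing notes) aligned them, first against pig genome ssc5 and next against miRBase, and miRDeep2 was used for quantification. What the authors deposited are raw counts, 1 whole number for each ssc-miRNA in each library, not normalized, and the study's methods name a filter on low counts but the sources used here do not say whether the 411 deposited rows are those that passed it. Molecules were not tagged, so that intervals and floors cover counting error only.

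The 20 libraries of minipig 1 and minipig 2 entered 1 fit in edgeR 4.0.16 (R 4.3.3): TMM scaling, CPM above 0.5 in at least 2 libraries (all 411 passed), 9 groups (pre-TBI, which pooled C7 and C1, and 8 time points), the quasi-likelihood test and Benjamini-Hochberg adjustment over 411 rows. C1 and C7 were separated in a fit of their own. A call is an unadjusted p under 0.05, the threshold of the study. The baseline was restricted to the 2 animals with a 17d library. Libraries of 1 animal are repeated samples, and the p-values measure the spread between these libraries. The minipig as a block was the paired alternative, since the same animals were sampled at every time point. Deviations from the group means correlated at 0.222 between libraries of the same minipig (88 pairs) and at -0.222 between those of different minipigs (88 pairs). In a group of 2 libraries the deviations mirror each other, so these values are not separate and the pairs are not independent. The pair of 17d libraries and the 6 pairs of pre-TBI libraries all differed by more than sampling noise (chi-square per degree of freedom from 21.8 to 144).

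Rows were named by rule: adjusted p under 0.05; the 12 higher and 12 lower calls of smallest p whose 17d libraries both lay outside the pre-TBI range, with at least 10 counts in each library of the higher group (9 and 12 qualified); the 10 most abundant before TBI; and called or defining members of 24 family and source lists, other rows that are named having been picked after their values were seen. The members and lists were chosen with earlier results of these data known. Standard errors are the log2 fold change over the root of F. The script was tested on simulated data. Figures used Python 3.11.15 and matplotlib 3.10.9. The alternatives were DESeq2 1.42.0, other scalings, filters, baselines, thinned counts and left-out libraries. Genome neighbours came from RefSeq names, of which 371 of 411 matched; no coordinates are given because the builds differ.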

Additional observations from a re-analysis of the deposited data

Results flagged for a closer look

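Of 38 groups of pre-TBI values, 37 were of named ssc-miRNAs and the other was of library totals. In 3 of them, all of ssc-miRNAs, 1 of the 4 pre-TBI libraries stood apart from the others. Each time it was C7 of minipig 1, the library with the fewest counts. For ssc-miR-138 the level there was 8.02 and the lowest pre-TBI level was 6.63, and the gap to the next library took up 0.834 of the range. For ssc-miR-204 the levels were 10.41 and 8.12, with a gap of 0.842 of the range, and for ssc-miR-96-5p they were 8.84 and 7.43, with a gap of 0.908. Each gap exceeded Dixon's 95% critical value for 4 samples, which chance exceeds in about 1 group in 20. All 3 ssc-miRNAs were called higher at 17d, and all remained called when C7 of minipig 1 was left out, at 1.94 for ssc-miR-138, 4.28 for ssc-miR-204 and 2.04 for ssc-miR-96-5p. C7 of minipig 1 was the highest pre-TBI library for each, so leaving it out lowers the baseline and is no check of these calls.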

How the results depend on the processing

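The count of 17d against pre-TBI at unadjusted p, 69, stayed within 1.5 times of itself under most alternatives, but it was 45 with C7 only as baseline, 45 with scaling by library size only, 20 with only the 6 libraries compared, and 18 with those 6 and the replicate block. The calls at adjusted p, 0 in the quasi-likelihood fit, were 5 with at least 10 counts in every library of a group, 20 with the pre-TBI libraries of minipig 3 added to the baseline, 14 with these as a group of their own, 18 with DESeq2, 16 with the likelihood ratio test, 3 with library size only, 5 with library size without rows over 10%, 1 with the replicate block (0 with the block on the 6 libraries or on thinned counts), a median of 1.5 over 20 TMM reference libraries, and 5 without the 8 rows that moved together (an alternative chosen after seeing the data). Leaving out libraries gave from 27 to 134 calls at unadjusted p and from 0 to 75 at adjusted p. The 17d library of minipig 2 gave the upper ends when left out (134, with 94 lower); without that of minipig 1 the count was 49, without all of minipig 2 it was 27, without C7 of minipig 2 or C1 of minipig 1 it was 40. For 17d against 14d, adjusted calls were 4 with the count minimum, 31 and 32 with minipig 3 in the 2 ways, 45 with DESeq2, 34 with the likelihood ratio test, 10 with the replicate block, 10 with the block on thinned counts, 0 with the block on the 4 libraries only, 19 with RLE, a median of 4 over TMM references and 21 without the 8 rows, and unadjusted calls were 44 with the 4 libraries only and 46 with these and the replicate block. Leaving out libraries gave 42 to 188 and 0 to 120. For 17d against 20d, adjusted calls (3) were 6 and 5 with minipig 3, 71 with DESeq2, 16 with the likelihood ratio test, 5 with the replicate block, 0 with library size without rows over 10%, 0 with the 4 libraries only, and 1 with the block on these, with the block on thinned counts, with thinned counts and without the 8 rows, and unadjusted calls (73 higher, 45 lower) were 42 and 3 with the 4 libraries, 51 and 5 with the block on them, and 22 lower with library size without rows over 10% and 28 lower without the 8 rows. Leaving out libraries gave 30 to 84 higher, 14 to 110 lower and 0 to 148 at adjusted p, each upper end without the 17d library of minipig 2. For C1 against C7 the unadjusted calls (3) were 7 with DESeq2, 1 with library size only, 6 with the likelihood ratio test and 15 with thinned counts. The share of higher among the calls, 60.9%, was 51.1% with library size only, 70.8% with RLE, 85.1% with library size without rows over 10%, 81.2% without the 8 rows, 75.5% without the 17d library of minipig 1 and 29.9% without that of minipig 2, and the median of all rows moved from 0.06 to 0.16 without the 8 rows and to -0.22 without the 17d library of minipig 2.

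The sign turned under some alternatives. With the replicate block, with the block on the 6 libraries and with the block on thinned counts, the log2 fold change was -0.26, -0.47 and -0.040 for ssc-miR-146a-5p, -0.33, -0.45 and -0.15 for ssc-miR-186 and -0.50, -0.64 and -0.33 for ssc-miR-9850-5p, and with the first pair it was -0.077 and -0.36 for ssc-miR-490 and ssc-miR-490-3p. Over the left-out libraries the values ran from -4.34 to 1.69 for ssc-miR-146a-5p, -4.13 to 1.64 for ssc-miR-186, -3.42 to 1.64 for both rows of miR-490, -4.27 to 1.51 for ssc-miR-9850-5p and -1.01 to 1.62 for ssc-miR-183, the negative values arising without libraries of minipig 1. They ran from -1.21 to 3.16 for ssc-let-7e, -0.85 to 3.66 for ssc-let-7f, -2.54 to 5.72 for ssc-miR-181a and -1.18 to 3.96 for ssc-miR-181b, the negative values arising without the 17d library or all of minipig 2. The causes were not tested. Among the rows named, the replicate block ended the calls of ssc-miR-451, ssc-miR-484 and ssc-let-7d-5p. Of the 9 rule-named higher rows, 7 remained called without that of minipig 1 and 3 without that of minipig 2, and of the 12 lower, 4 and 10; their direction was fixed by the naming rule. The depth of 29159 and 63441 counts at 17d limits all rows under 10 counts.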
